A study of Homo sapiens with 6 samples.

Results

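The replication-dependent histone genes were examined as transcript clusters, the rows into which the array groups probes of one transcribed locus. A cluster was taken when every gene symbol listed for it was a clustered histone gene (older symbols HIST1H to HIST4H, or newer symbols H1-1 to H1-6, H2AC, H2BC, H3C and H4C). This gave 72 of the 65535 clusters of the table, 35 with 1 symbol and 37 with several. By type, 6 were of the linker histone H1, 17 of H2A, 21 of H2B, 13 of H3 and 15 of H4. Judging by the prefix of the row identifier, 56 lay on chromosome 6, 15 on chromosome 1 and 1 on chromosome 12.

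Replication-dependent histone genes encode the bulk of the histones that package newly made DNA. Most lie in clusters on chromosomes 6 and 1 and are transcribed mainly in S phase, under the coactivator NPAT, a substrate of cyclin E and CDK2. Their mRNAs usually end in a stem-loop bound by SLBP in place of a poly(A) tail and are degraded when DNA synthesis stops. Some members also give polyadenylated transcripts, which are seen in cells that no longer divide.

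PC3-ML cells, a metastatic subline of the PC-3 human prostate cancer line, had been given 500 nM PD 0332991 in DMSO on 3 arrays and DMSO alone on 3 arrays, in each case for 24 h. All cells were the parental line, grown in DMEM with serum. PD 0332991 is palbociclib, an inhibitor of CDK4 and CDK6, the kinases that inactivate the retinoblastoma protein, which the series title says the drug was to re-activate. Total RNA was measured. Nothing in the labels says that arrays of one group stand for separate cultures, so the p-values reflect variation among these 6 arrays alone, which could be technical.

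Array medians over all clusters lay between 4.48 and 4.56 on the log2 scale, and between arrays of one group Pearson's r across clusters was 0.9934 to 0.9960. Clusters are not independent replicates. KRT8 (cluster TC12001539) and KRT18 averaged 11.6 and 11.2 with PD 0332991, against 11.3 and 11.2 with DMSO, and both are epithelial keratins. The leukocyte marker PTPRC averaged 3.81 with PD 0332991 and 3.85 with DMSO, below the median of all clusters.

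Histone transcripts were lower after PD 0332991. Of the 72 clusters, 46 fell (limma, Benjamini-Hochberg adjusted p under 0.05 over all 65535 clusters), or 63.9%, where 1.43% of all clusters fell. A further 2 rose, where 0.835% of all clusters rose, and 24 did not pass the threshold; in either direction 2.26% of all clusters passed. The median log2 change, PD 0332991 minus DMSO, was -1.58 over the 72 clusters (2.99-fold lower) and 0.02 over all clusters. Every PD 0332991 value lay below every DMSO value in 61 of the 72, against 7.94% of all clusters, and above in 2, against 11.6% of all clusters. Among those that fell, 43 were at least 2-fold lower, 27 at least 4-fold and 14 at least 8-fold. Of the 20 clusters with the largest falls in the whole table, 10 were histone clusters. In these bulk samples, fewer cells in S phase and less histone RNA per cell cannot be told apart. With any single array left out, 39 to 43 fell and 0 rose.

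**Figure D1:**
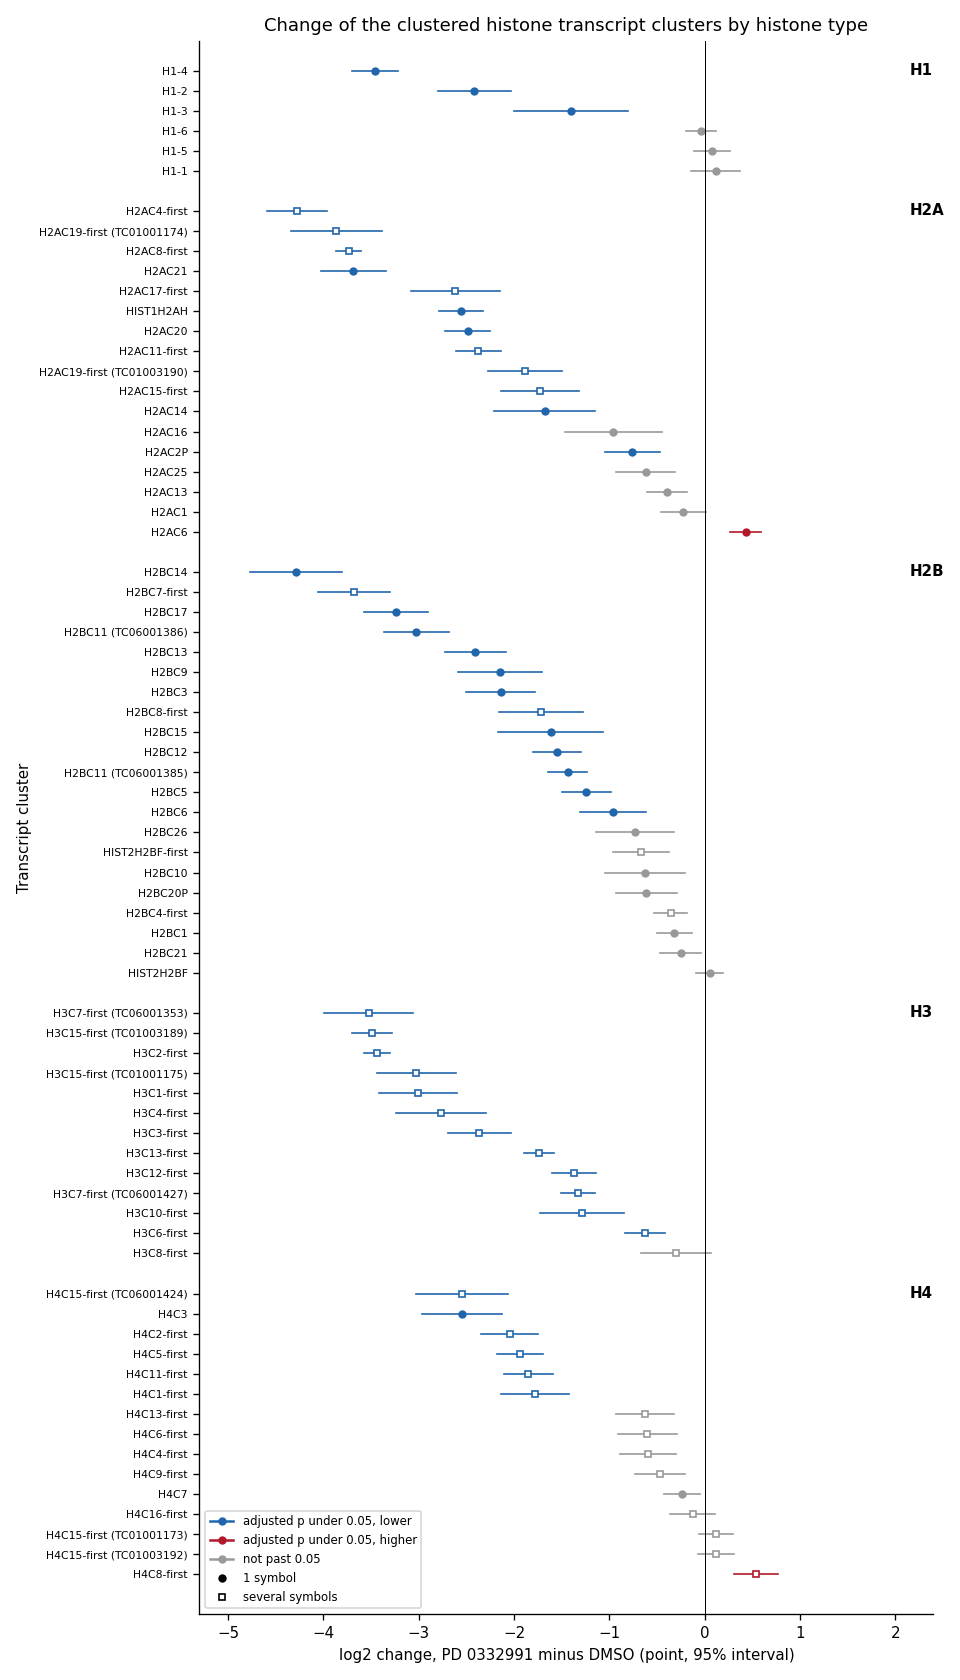
Log2 change (PD 0332991 minus DMSO, x axis) with its 95% interval for each of the 72 histone transcript clusters, ordered by size within each histone type; filled circles list 1 symbol and open squares several. A cluster that lists several symbols is named by the first of them. Every type holds clusters that fell and at least 1 that did not pass, and the 2 that rose are H2AC6 and the cluster listing H4C8 first.

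The median of the 72 clusters was 7.04, 6.82 and 6.64 on the PD 0332991 arrays, against 8.84, 8.53 and 8.43 on the DMSO arrays (log2 expression). All 3 PD 0332991 arrays lay below all 3 DMSO arrays by this summary. Dim clusters gave fewer calls: 2 of the 10 whose mean lay below the median of all clusters fell, as did 18 of the 28 from there to a mean of 8, and 26 of the 34 at or above 8. Over all clusters of the table in the same bands, 0.0275%, 1.27% and 6.77% fell. Across the 72 clusters the mean level and the log2 change had a Pearson r of -0.40 (Spearman -0.40), a description over clusters that share probes and arrays and whose mean includes the change itself.

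Among the linker histones, which bind the DNA entering and leaving the nucleosome, 3 of 6 clusters fell and each has 1 symbol. H1-4 was at 12.65, 12.33 and 12.34 with PD 0332991, against 15.93, 15.94 and 15.82 with DMSO (log2 expression). The groups were more than 3 log2 units apart, and H1-4 fell (log2 change ± SE, -3.46 ± 0.101, adjusted p = 4.09e-05, limma). H1-2 fell by 2.42 on the log2 scale (5.35-fold, adjusted p = 0.000803, limma). H1-3 fell by 1.40 (adjusted p = 0.0482, limma), a call lost without DMSO 1, 2 or 3 or without PD 0332991 1 or 3, where the adjusted p reached 0.160. H1-1, H1-5 and the testis-specific H1-6 had log2 changes of 0.11, 0.08 and -0.04 with overlapping groups, and H1-1 and H1-5 lay below the median level of all clusters. H1-6 lay above it, at a mean of 4.87 over the 6 arrays.

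H2A, which pairs with H2B in the nucleosome core, fell in 12 of 17 clusters and rose in 1, with a median log2 change of -1.89. Over the 10 single-symbol H2A clusters the median was -0.86. Clusters with several symbols are named here by the symbol listed first. H2AC4-first, which also lists H2AC8, was at 7.17, 6.87 and 7.33 with PD 0332991, against 11.46, 11.48 and 11.27 with DMSO. H2AC8-first, listing the same 2 genes, was at 10.22, 10.29 and 10.26 with PD 0332991 and at 13.98, 13.98 and 14.01 with DMSO. Both clusters had tight groups far apart, 19.4-fold and 13.3-fold lower (adjusted p = 4.40e-05 and 5.51e-06, limma), and the adjusted p of H2AC8-first was the smallest of the 72. The cluster TC01001174, which lists H2AC19 and H2AC18, had 13.92, 13.35 and 13.29 with PD 0332991, against 17.31, 17.20 and 17.64 with DMSO (14.6-fold lower). TC01003190, which lists the same 2 genes, was 3.70-fold lower. H2AC21 stood between 7.85 and 8.35 on the PD 0332991 arrays and between 11.64 and 11.90 on the DMSO arrays, without overlap and 12.9-fold lower (log2 change ± SE, -3.69 ± 0.142, adjusted p = 9.02e-05, limma).

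Other H2A clusters fell less. HIST1H2AH, which RefSeq lists as H2AC12, was 5.89-fold lower and H2AC20 was 5.59-fold lower, with 13.98, 13.74 and 13.85 under PD 0332991 against 16.49, 16.21 and 16.31 under DMSO for H2AC20. H2AC17-first, H2AC11-first and H2AC15-first, all listing the same 6 genes, fell, with log2 changes of -2.62, -2.37 and -1.73. H2AC14 fell by 1.68, a call lost without DMSO 1 or without any one PD 0332991 array (adjusted p up to 0.0783, limma). The pseudogene H2AC2P fell by 0.76, also lost without DMSO 1, DMSO 3 or any one PD 0332991 array (adjusted p up to 0.130, limma). H2AC16 (-0.96), H2AC25 (-0.62), H2AC13 (-0.40) and the testis-specific H2AC1 (-0.22) did not pass; H2AC16 had an adjusted p of 0.0222 without DMSO 1 (limma).

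H2AC6 went the other way. It was at 9.98, 10.04 and 10.08 with PD 0332991, against 9.67, 9.62 and 9.51 with DMSO. The groups did not overlap, and H2AC6 was 1.35-fold higher (log2 change ± SE, 0.43 ± 0.067, adjusted p = 0.0306, limma). Leaving out any 1 of the 6 arrays ended the call, with adjusted p from 0.0773 to 0.121 and the log2 change between 0.38 and 0.46. With each array centred on its median the adjusted p was 0.0567 (limma).

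**Figure D2:**
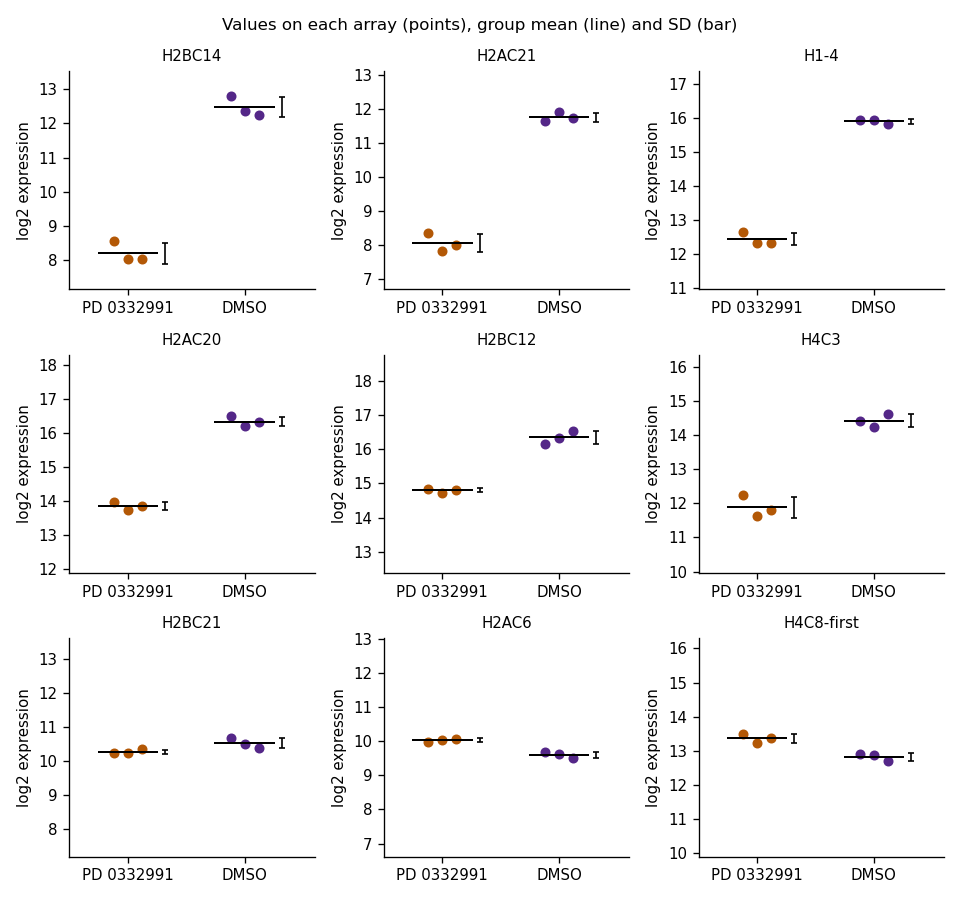
Log2 expression on each array (points) for 9 clusters, PD 0332991 left of DMSO, with the group mean (line) and SD (bar, n = 3); each panel spans the same number of log2 units. H2BC14, H2AC21, H1-4, H2AC20, H2BC12 and H4C3 are lower with PD 0332991, H2BC21 differs little, and H2AC6 and H4C8-first are higher.

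H2B fell in 13 of 21 clusters, with a median log2 change of -1.44 and no cluster higher. H2BC14 had the largest fall of any histone cluster, at 8.54, 8.01 and 8.02 with PD 0332991 and at 12.82, 12.36 and 12.26 with DMSO. The groups were separated by over 3 log2 units and the level was 19.5-fold lower (log2 change ± SE, -4.29 ± 0.199, adjusted p = 0.000178, limma). H2BC7-first, which lists 5 H2B genes, was 12.8-fold lower and had the smallest adjusted p among H2B clusters (0.000127, limma). H2BC17 was 9.41-fold lower, with 5.49, 5.35 and 5.25 under PD 0332991 against 8.89, 8.47 and 8.44 under DMSO. H2BC13, H2BC9 and H2BC3 were 5.30-fold, 4.44-fold and 4.41-fold lower.

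H2BC12, one of the members known to give polyadenylated transcripts, was at 14.85, 14.73 and 14.82 with PD 0332991, against 16.17, 16.35 and 16.54 with DMSO. Its groups did not overlap and it was 2.93-fold lower (adjusted p = 0.000835, limma). H2BC15 (log2 change -1.61) and H2BC6 (-0.96) also fell. The call of H2BC15 was lost without DMSO 1, DMSO 2 or any one PD 0332991 array (adjusted p up to 0.103, limma), and that of H2BC6 without DMSO 1 or 2 or PD 0332991 1 or 3 (up to 0.111, limma). H2BC26 (-0.73), H2BC10 (-0.63), the pseudogene H2BC20P (-0.61), the testis-specific H2BC1 (-0.32) and H2BC21 (-0.25) did not pass. HIST2H2BF, which RefSeq lists as H2BC18, had log2 changes of 0.05 for its own cluster and -0.67 for the cluster it shares with HIST2H3PS2 (adjusted p = 0.806 and 0.0505, limma).

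H3, the core histone whose tail carries many regulatory marks, fell in 12 of 13 clusters, with a median log2 change of -2.37. No H3 cluster had a symbol to itself. H3C2-first, listing 10 genes, was at 9.30, 9.24 and 9.24 with PD 0332991 and at 12.67, 12.75 and 12.68 with DMSO. Spreads within groups were under 0.05 (SD), and the cluster was 10.8-fold lower (log2 change ± SE, -3.44 ± 0.056, adjusted p = 5.98e-06, limma). The cluster TC06001353, listing H3C7 first, was 11.5-fold lower, and TC01003189, listing H3C13, H3C14 and H3C15 of chromosome 1, was 11.2-fold lower. TC01001175 and H3C13-first, listing the same 3 genes, were 8.13-fold and 3.33-fold lower (adjusted p = 0.000440 and 8.98e-05, limma). H3C1-first, H3C4-first and H3C3-first were 8.02-fold, 6.78-fold and 5.15-fold lower. H3C12-first (-1.37), TC06001427, which again lists H3C7 first (-1.33), H3C10-first (-1.28) and H3C6-first (-0.63) also fell. The calls of the last 2 were lost without 5 of the 6 arrays left out one at a time: H3C10-first kept its call without DMSO 2 and H3C6-first without DMSO 3, with adjusted p up to 0.0992 and 0.0940 otherwise (limma). H3C8-first did not pass (-0.30, adjusted p = 0.494, limma).

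H4, one of the most conserved proteins known, had calls in both directions. The rise rested on 1 cluster, whose call was lost with any array left out. Of 15 clusters, 6 fell, 1 rose and 8 did not pass, with a median log2 change of -0.60. With only symbol-bearing clusters tested 10 fell, and the median was -1.19 over the 12 clusters at or above the median level of the table and -1.39 over the 2 single-symbol clusters. H4C3, with its own cluster, was at 12.23, 11.62 and 11.81 under PD 0332991, against 14.42, 14.25 and 14.63 under DMSO. That was 5.83-fold lower without overlap (log2 change ± SE, -2.54 ± 0.174, adjusted p = 0.000980, limma). TC06001424, which lists 14 genes with H4C15 first, had the same fold, and H4C2-first, H4C5-first, H4C11-first and H4C1-first were 4.13-fold, 3.84-fold, 3.60-fold and 3.44-fold lower.

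A pair of chromosome 1 clusters that list H4C15 first did not pass. TC01001173 stood at 11.85, 11.86 and 11.80 with PD 0332991 and at 11.85, 11.64 and 11.67 with DMSO. TC01003192 stood at 11.87, 11.84 and 11.78 with PD 0332991 and at 11.85, 11.62 and 11.65 with DMSO. Both had log2 changes of 0.12 with overlapping groups (95% intervals -0.06 to 0.30 and -0.07 to 0.31), and their values were nearly equal on every array.

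H4C8-first was at 13.50, 13.23 and 13.36 with PD 0332991, against 12.91, 12.88 and 12.69 with DMSO. It was 1.45-fold higher without overlap (log2 change ± SE, 0.54 ± 0.097, adjusted p = 0.04996, limma), a call lost without any 1 of the 6 arrays (adjusted p from 0.0778 to 0.152) and with arrays centred on their medians (0.0712, limma). The remaining H4 clusters, H4C13-first (-0.63), H4C6-first (-0.60), H4C4-first (-0.60), H4C9-first (-0.47), H4C7 (-0.24) and H4C16-first on chromosome 12 (-0.12), did not pass. H4C13-first had an adjusted p of 0.0233 without PD 0332991 replicate 1 (limma).

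By chromosome, 39 of the 56 clusters of chromosome 6 fell and 7 of the 15 of chromosome 1. The shares differed within types. On chromosome 1, all 3 H3 clusters and 4 of 5 H2A clusters fell, while 0 of 5 H2B and 0 of 2 H4 clusters did (limma). Of all clusters of the table, 1.43% fell. In 4 of the 5 H2B clusters every PD 0332991 value still lay below every DMSO value, while groups overlapped in the 2 H4 clusters. With only symbol-bearing clusters tested, 18 of the 21 H2B clusters of the whole table fell, against 13 with all clusters tested. On chromosome 6, 9 of 10 H3, 8 of 12 H2A, 13 of 16 H2B and 6 of 12 H4 clusters fell, besides the 3 of 6 of H1. Median log2 changes on chromosome 1 were -3.02 for H3, -2.48 for H2A, -0.61 for H2B and 0.12 for H4. On chromosome 6 they were -1.87 for H3, -1.70 for H2A, -1.67 for H2B and -1.20 for H4. The difference between chromosomes was not tested, since clusters share sequence and are not replicates.

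Histone genes have near-identical copies, so it was asked whether clusters that list the same genes moved alike. The 37 clusters with several symbols held only 9 different sets of symbols. For 66 of the 72 clusters the first symbol had an entry in the promoter table used here, and for 65 of these it lay on the chromosome of the row identifier. The exception was TC06001424, whose first symbol, H4C15, lies on chromosome 1. In 53 of 58 neighbouring pairs of identifiers on one strand, the first symbols ran in genome order. Both counts include clusters with a single symbol and were not made for clusters with several symbols alone. They therefore cannot decide whether the first symbol marks the locus of a cluster that lists several.

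Clusters of one symbol set moved by unequal amounts. The set of 14 H4 genes was listed by 13 clusters, whose log2 changes ran from -2.54 to 0.54; 5 fell, 1 rose and 7 did not pass. The set of 10 H3 genes was listed by 9 clusters, with log2 changes from -3.52 to -0.30. Of the clusters listing H2BC4, H2BC6, H2BC7, H2BC8 and H2BC10, H2BC7-first fell by 3.68 on the log2 scale, H2BC8-first fell by 1.72 and H2BC4-first had a change of -0.36 (adjusted p = 0.0706, limma). The change of H2BC7-first minus that of H2BC4-first was -3.32 (95% interval -3.77 to -2.87, two-sided exact permutation p = 0.1). H2BC11 had 2 clusters of its own: TC06001386 had a log2 change of -3.02 and TC06001385 one of -1.44, a difference of -1.59 (95% interval -2.27 to -0.90, exact permutation p = 0.1). For H2AC18 and H2AC19, TC01001174 minus TC01003190 was -1.98 (95% interval -2.42 to -1.54, exact permutation p = 0.1). Among H3C13, H3C14 and H3C15, TC01003189 minus H3C13-first was -1.76 (95% interval -1.92 to -1.59, exact permutation p = 0.1).

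In all, 12 pairs within sets of 2 or 3 clusters were compared. Of these, 10 reached the exact permutation p of 0.1, the smallest that 3 against 3 allows, so none could pass 0.05, and adjusted over the 12 it was 0.12. The 95% interval of the difference left out 0 in 8 of the 12. H2AC17-first and H2AC11-first, for one, had changes that differed by -0.24 (95% interval -1.02 to 0.54, exact permutation p = 0.4).

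**Figure D3:**
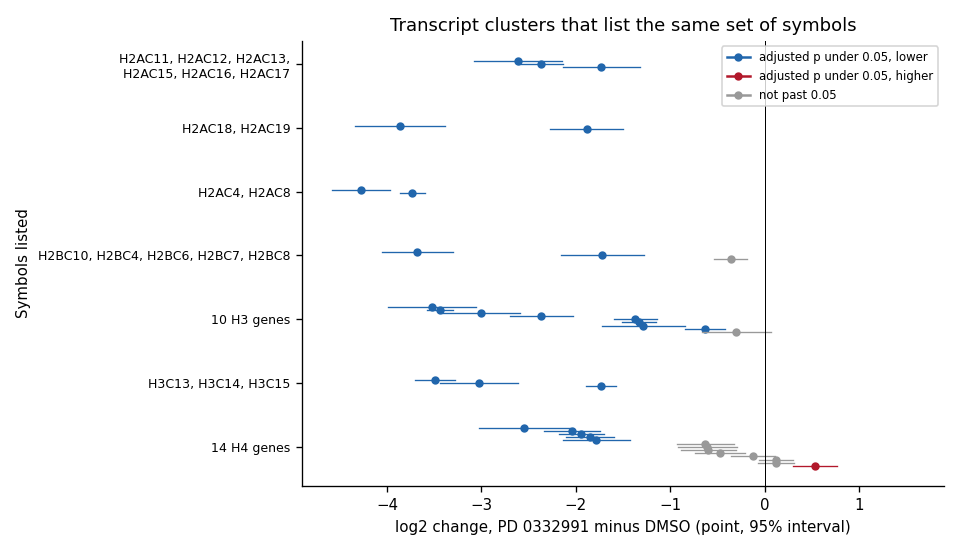
Log2 change (x axis, PD 0332991 minus DMSO, with 95% interval) of transcript clusters grouped by the set of symbols they list. Within the 14 H4 genes the points run from -2.54 to 0.54, and within the 10 H3 genes from -3.52 to -0.30.

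The 150 bases before the gene start are shown for 3 members with large falls and a cluster of their own. H2BC14 and H1-4 lie on chromosome 6 and H2AC21 on chromosome 1. Sequences are those of RefSeq, build GRCh38.p14, read 5′ to 3′ along the gene's strand and ending at the base before its start. Capitals mark every match, on either strand, to TATAAA (the TATA box), CCAAT (the CCAAT box), ATTTGCAT (the octamer, bound by the factor POU2F1), AAACACA (an H1 gene element) or TTTCCCGC (an E2F site). Read along the gene, a CCAAT on the other strand appears as ATTGG.
H2BC14 (chr6:27814872-27815021, + strand): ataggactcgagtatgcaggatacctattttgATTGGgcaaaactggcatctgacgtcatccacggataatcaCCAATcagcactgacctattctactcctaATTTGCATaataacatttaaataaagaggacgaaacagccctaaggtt
H2AC21 (chr1:149887966-149888115, - strand): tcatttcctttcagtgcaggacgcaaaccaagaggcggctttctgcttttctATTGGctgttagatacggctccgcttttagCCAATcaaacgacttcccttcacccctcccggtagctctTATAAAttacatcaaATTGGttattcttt
H1-4 (chr6:26156179-26156328, + strand): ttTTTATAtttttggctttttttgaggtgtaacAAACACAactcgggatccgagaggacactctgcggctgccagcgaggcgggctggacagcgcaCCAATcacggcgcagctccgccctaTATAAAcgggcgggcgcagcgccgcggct
In H2BC14 the octamer began 48 bases and a CCAAT 77 bases before the start. In H2AC21 a TATAAA began 29 bases and a CCAAT 68 bases before it. In H1-4 a TATAAA began 29 bases, a CCAAT 54 bases and the AAACACA element 117 bases before it.

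How often histone genes held these letters differed by motif and by type. Counted over windows of 250 bases before and 50 after the start, 1 window a gene and both strands, 43 of 65 histone genes (66.2%) held TATAAA, against 3264 of all 27305 genes of the table. CCAAT was found in 55 of 65 (84.6%), against 35.7% of all genes, and in 3 of 13 H4 genes. The octamer was in 14 of 18 H2B and 11 of 16 H2A windows, against 1.80% of all genes, and AAACACA was in all 6 H1 windows, against 5.76%. TTTCCCGC was in 1 of 65, against 1.66% of all genes. Histone genes that a cluster lists first were then taken, each by the cluster of highest mean on its own chromosome. Some of these clusters list several genes. With TATAAA 28 of 39 fell (median log2 change -1.73), and without it 8 of 20 (median -0.70), against 1.43% of all clusters. Of those with TATAAA, 2 of 3 H1, 8 of 11 H2A and 9 of 12 H2B genes fell. So did 7 of 7 H3 and 2 of 6 H4 genes. Of those without it, 1 of 3 H1, 1 of 3 H2A and 3 of 6 H2B genes fell. So did 2 of 3 H3 and 1 of 5 H4 genes. With CCAAT 33 of 51 fell, and without it 3 of 8, all of these 8 being H4 genes. With the octamer 17 of 25 fell, and without it 19 of 34. Windows of divergent neighbours overlap, so 1 match can count for both genes and may lie nearer the neighbour's start. H2BC4 and H2BC14 count as holding TATAAA, and H2AC20 as holding the octamer, with no such match in their 150 bases shown. These are descriptions of letters in a window and were not tested.

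Some H2A and H2B genes are neighbours transcribed away from each other, so that a short stretch serves both starts. In 10 such pairs the windows overlapped, with 194 to 248 bases between starts. Both members fell in 5 pairs, 1 of the members fell in 2 pairs and none fell in 3 pairs, taking the cluster of highest mean that lists each gene first. The clusters taken for H2AC8, H2AC11, H2AC15, H2AC17, H2BC4 and H2BC8 list several genes, so their values may not be those of the gene alone. For H2BC11 the cluster at -3.02 was taken. Its other cluster, at -1.44, fell less than H2AC11-first (-2.37). The 150 bases before each start are shown for H2AC20 and H2BC21, a pair that moved unequally, and for the pair of H2AC6 and H2BC4. Within a pair these stretches overlap only in part. Those of H4C8 are shown as well, which is in none of the 10 pairs and is listed first by a cluster that rose.
H2AC20 (chr1:149886768-149886917, + strand): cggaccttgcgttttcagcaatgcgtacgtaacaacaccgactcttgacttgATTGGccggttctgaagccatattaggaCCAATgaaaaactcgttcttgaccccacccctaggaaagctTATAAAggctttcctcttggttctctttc
H2BC21 (chr1:149886683-149886832, - strand): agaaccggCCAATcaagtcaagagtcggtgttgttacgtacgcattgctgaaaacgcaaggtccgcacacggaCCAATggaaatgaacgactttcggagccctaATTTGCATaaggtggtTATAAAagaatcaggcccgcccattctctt
H2AC6 (chr6:26124022-26124171, + strand): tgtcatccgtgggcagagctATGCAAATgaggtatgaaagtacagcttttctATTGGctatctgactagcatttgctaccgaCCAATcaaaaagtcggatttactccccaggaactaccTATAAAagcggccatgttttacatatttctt
H2BC4 (chr6:26123927-26124076, - strand): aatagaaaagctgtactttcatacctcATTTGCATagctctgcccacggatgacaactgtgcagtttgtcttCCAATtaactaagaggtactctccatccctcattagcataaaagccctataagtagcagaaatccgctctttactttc
H4C8 (chr6:26285535-26285684, - strand): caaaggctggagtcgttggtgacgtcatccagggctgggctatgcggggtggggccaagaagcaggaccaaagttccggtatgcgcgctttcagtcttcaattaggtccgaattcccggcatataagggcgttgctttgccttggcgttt
H2AC20 and H2AC6 each had a TATAAA, 29 and 31 bases before the start, and H2BC21 had one 30 bases before. In the 150 bases of H2BC4 there was no TATAAA, and in those of H4C8 none of the 5 motifs matched.

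H2BC21 was at 10.23, 10.23 and 10.33 with PD 0332991, against 10.67, 10.49 and 10.38 with DMSO, a small separation that did not pass (adjusted p = 0.290, limma). Its neighbour H2AC20 fell by 2.48 on the log2 scale, and the change of H2AC20 minus that of H2BC21 was -2.23 (95% interval -2.50 to -1.96, exact permutation p = 0.1). H2AC6 minus H2BC4-first was 0.79 (95% interval 0.61 to 0.96, exact permutation p = 0.1), H2AC6 having risen while H2BC4-first, at 9.28, 9.21 and 9.26 with PD 0332991 and 9.73, 9.54 and 9.56 with DMSO, did not pass. H2AC14 minus H2BC14 was 2.61 (95% interval 1.41 to 3.81), H2AC13 minus H2BC13 was 2.01 (95% interval 1.54 to 2.48) and H2AC8-first minus H2BC8-first was -2.01 (95% interval -2.66 to -1.37), each with an exact permutation p = 0.1. H2AC14 was dim, averaging 3.61 with PD 0332991 and 5.28 with DMSO, and H2BC14 averaged 8.19 and 12.48. Whether the low level of H2AC14 limited its fall was not tested. H2AC15-first and H2BC15 differed by -0.12 (95% interval -1.40 to 1.16, exact permutation p = 0.8). Of the 10 pairs, 4 differed by more than 1 log2 unit and the interval left out 0 in 6. Adjusted over the 10 pairs the smallest exact permutation p was 0.143, and the choice of these pairs was made with their values known.

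**Figure D4:**
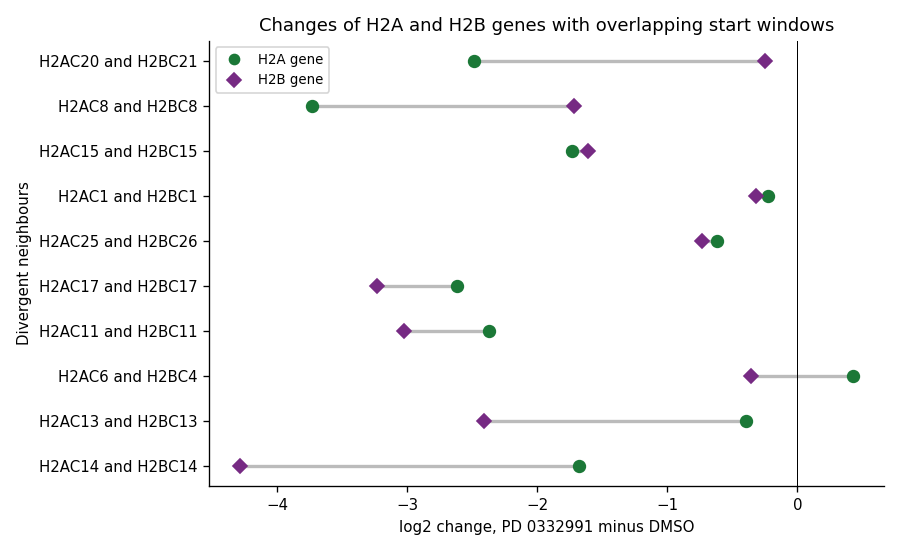
Log2 change (x axis, PD 0332991 minus DMSO) of the H2A gene (circle) and the H2B gene (diamond) of 10 divergent neighbours with overlapping start windows, sorted by the difference. H2AC14, whose mean lies below the median of all clusters, and H2BC14 are 2.61 apart, H2AC20 minus H2BC21 is -2.23, and H2AC15 minus H2BC15 is -0.12. Some of the genes are shown by a cluster that lists several.

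For histone genes known to give polyadenylated transcripts in differentiated cells, 7 clusters list such a gene first. Of these, 3 fell, 1 rose and 3 did not pass, where 1.43% of all clusters fell and 0.835% rose. Their median log2 change was -0.36. H1-2 (-2.42), H2BC12 (-1.55) and H2BC5 (-1.24) fell, the last to 9.45, 9.39 and 9.50 with PD 0332991, against 10.91, 10.53 and 10.61 with DMSO. H2AC6 rose, a call lost with any 1 array left out. H2BC21 did not pass, nor did H2BC4-first, which lists 5 genes, or H4C16-first, which lists 14 and had a mean of 4.54. A cluster value does not tell stem-loop from polyadenylated transcripts of the same gene, so which form was measured is not known here.

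Most genes of histone transcription and histone mRNA processing did not pass the threshold. Of 17 clusters, 2 fell, 0 rose and 15 did not pass, with a median log2 change of -0.14 (limma). In the same fit 1.43% of all clusters fell, and 6.77% of those at a mean of 8 or above. When only clusters with a symbol were tested, 5 of the 17 fell and 1 rose. NPAT, the coactivator of histone genes, averaged 9.75 with PD 0332991 and 10.3 with DMSO, a fall of 1.47-fold (adjusted p = 0.0156, limma). SLBP, the stem-loop binding protein, fell by 0.37 on the log2 scale (adjusted p = 0.0359, limma). The call of NPAT held with PD 0332991 replicate 3 left out and was lost without any other array (adjusted p up to 0.0842), and that of SLBP was lost without any 1 of the 6 (from 0.0865 to 0.152). CASP8AP2, of histone locus bodies, had a change of -0.34 (adjusted p = 0.0535, limma) and the cap-binding NCBP1 one of -0.36 (adjusted p = 0.0812, limma).

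Histone variants made outside S phase as well, and encoded outside the clusters, fell in 7 of 12 clusters, where 1.43% of all clusters fell. Their median log2 change was -0.39, and 4 or 5 fell with any single array left out. The cluster of H2AJ, 1 of the 12, also lists the clustered gene H2AC20, and it did not pass (-0.20, adjusted p = 0.175, limma). H2AX, the variant phosphorylated at DNA breaks, was 4.88-fold lower, and the centromeric CENPA was 3.62-fold lower. H2AZ1 and H2AZ2 had log2 changes of -0.94 and -0.69. These 4 passed with each array left out, with adjusted p up to 0.0261 (limma). H1-10 (-0.70), MACROH2A1 (-0.36) and MACROH2A2 (-0.34) lost their calls: H1-10 without any array but DMSO 3 and the macroH2A genes without any 1 of the 6, with adjusted p up to 0.108, 0.105 and 0.170 (limma). The H3.3 clusters, H3-3B-first and H3-3A-first, had changes of -0.37 and -0.16 (adjusted p = 0.0736 and 0.545, limma).

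S phase replication genes, the list most like the histones in timing, fell in 17 of 18 clusters, where 1.43% of all clusters fell. Their median log2 change was -1.34 (2.54-fold lower). TYMS, RRM2, CCNE2 and PRIM1, with the smallest p of the list, were 6.70-fold, 9.50-fold, 7.98-fold and 8.39-fold lower. MCM6 did not pass (-0.28, adjusted p = 0.187, limma). The histone clusters had log2 changes from -4.29 to 0.54 and this list from -3.25 to -0.28. The difference between the lists was not tested.

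**Figure D5:**
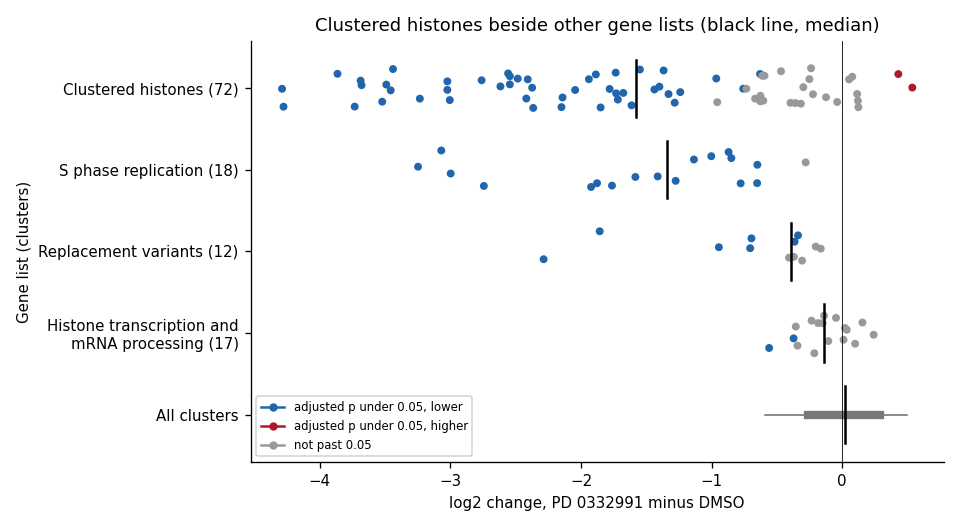
Log2 change (x axis, PD 0332991 minus DMSO) of each cluster in the histone list and 3 other gene lists, with the median as a black line and the number of clusters in brackets. The bar for all clusters covers the middle 90% (thick) and 98% (thin) of the table, and the histone median is -1.58.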

How the data were processed

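Gene expression was measured in 6 PC3-ML samples, 3 per group. The authors deposited a table of 1 value for each array and cluster, with a range of 2.04 to 19.93 that was read as log2; the log base is not stated. Per the submitters' processing notes, Affymetrix Expression Console was used; normalization and genome build are not given in the sources used here. Per the labels' protocols, a NuGEN system amplified the cDNA, but the sample description names an Affymetrix kit; which was used is not known. Depth does not apply to arrays, and 3 per group limit the precision.

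Symbols came from GEO's platform annotation: 22685 clusters had 1 symbol, 1385 several and 41465 none. Symbols were updated through Entrez identifiers with RefSeq (GRCh38.p14). Promoter windows, taken for 65 of the 72 histone genes listed, are also RefSeq's. All clusters were fitted with limma 3.58.1 in R 4.3.3 (1 mean per group, empirical Bayes, two-sided), with Benjamini-Hochberg adjustment over all 65535 and a threshold of 0.05. Differences between clusters were tested by exact permutation (SciPy 1.17.1), with 95% t intervals of the per-array difference on the pooled variance of both groups. Data over 65535 clusters were simulated for the comparison of PD 0332991 with DMSO, with 50 clusters changed at each size. Of these 50, limma called 0 at a log2 change of 0.25, 11 at 0.5, 30 at 1 and 47 at 2, with 1 false call. In the data themselves 1482 clusters passed. Whether the simulated rates hold for the histone clusters was not tested.

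Members, lists and tests were chosen with earlier results of these data known. Named clusters were the 8 largest falls and rises, those called higher, the one with the smallest p and the one with the highest mean in each type, called clusters with several symbols, genes with several clusters, the polyadenylated list, 4 members with the smallest p of each other list, and any of its members called in the minority direction; the remaining histone clusters are named to account for every member, and other list genes were named after their values were seen. A cluster listing H2AJ with H2AC20 was not a member, but it is counted in the list of histone variants. Some genes of the lists are not reported here. Alternatives were the replicate number as a block, median centring, quantile normalization, a trended robust variance, 3 narrower sets of clusters and each array left out.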

Additional observations from a re-analysis of the deposited data

How the results depend on the processing

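Over the 72 clusters no direction reversed under any of the 13 alternatives, and 38 of the 46 that fell did so under every alternative that tested them. The number that fell was 46 to 58 under median centring, quantile normalization, a trended variance, a minimum level and a restriction to clusters with a symbol, and 25 of 34 with single-symbol clusters only, 1 per gene, where the median log2 change was -1.10. The number that rose was 0 with the replicate block, 0 with median centring, 1 with single-symbol clusters and 0 without any one array. By type, the median log2 change with a minimum level was -1.91 for H1, -2.37 for H2A and -1.19 for H4, and with single-symbol clusters -0.86 for H2A and -1.39 for H4. The number of H4 clusters that fell was 10 with only symbol-bearing clusters and 1 of 2 with single-symbol clusters; these settings test fewer clusters.

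The same replicate numbers occur in both groups, and whether they pair the samples is not known. Deviations from the group means of same-numbered arrays correlated at -0.0041, -0.023 and 0.023 over all clusters, which cannot exclude a pairing. The histone median ran downward with replicate number in both groups (8.84, 8.53 and 8.43 with DMSO, 7.04, 6.82 and 6.64 with PD 0332991). With the replicate block 40 histone clusters fell. Over all clusters, 935 fell and 547 rose; these were 367 and 50 with the block, 925 and 341 with median centring, 1379 and 1286 with symbol-bearing clusters, and 436 to 561 and 118 to 200 with an array left out. Among replacement variants 4 fell with the block, and among histone processing genes 0. Of the 72 clusters, 10 lay below the median level of the table, and 2 of these fell.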
